A study of Mus musculus with 12 samples.

Results

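Interferon-stimulated genes are the genes that cells switch on when interferon binds its receptors, and 42 of them were followed across 2 mouse fibroblast lines treated with Sonic hedgehog. The members are the 42 gene symbols of a set list, taken as the rows that carry those symbols in a table of 24346 genes, and all 42 had a row. That list and the further gene lists below were chosen with earlier results of these data known. The 4 groups were NIH-3T3 cells given SHHN, NIH-3T3 cells given vehicle, MLg cells given SHHN and MLg cells given vehicle, with 3 libraries in each group and 12 in all. SHHN is a recombinant amino-terminal fragment of Sonic hedgehog, and treatment lasted 48 h in medium with 0.5% serum for SHHN and vehicle alike. NIH-3T3 is an embryonic fibroblast line of NIH/Swiss mice, and MLg is a fibroblast line from newborn lung of ddY mice. Each line is an established culture, so each stands for 1 source of cells, and strain, tissue and age differ together between the lines. Whether replicates came from separate cultures is not stated, so p-values measure only the spread between these libraries, which may be technical. No interferon, virus or nucleic acid was given to any group, so the levels below are those of unstimulated cells.

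Type I interferons bind the receptor pair IFNAR1 and IFNAR2, and the kinases JAK1 and TYK2 then phosphorylate STAT proteins, among them STAT2. Phosphorylated STAT proteins join IRF9 to form the complex ISGF3, which binds a DNA element called the interferon-stimulated response element. Its targets restrict viruses at several steps: sensors detect viral RNA, IFIT and PKR proteins block translation, Mx and guanylate-binding GTPases attack incoming particles and vacuoles, and tetherin holds virions at the cell surface. Several of the sensors and transcription factors are themselves induced, so the system amplifies itself. Fibroblasts keep a low constitutive level of many of these genes through interferon that they secrete in small amounts.

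Levels are in FPKM, fragments counted per unit of transcript length and of library size, which the authors computed. A gene was tested where at least 3 of the 12 libraries held at least 0.5 FPKM, which 12379 genes did, and 37 of the 42 members were among them. The 5 members not tested were Oas1a, Oas2, Oas3, Oasl1 and Rsad2: Oas3 was listed at 0 in all 12 libraries, and the others reached at most 0.113, 0.338, 0.0595 and 0.113 FPKM. Fold changes are log2 differences of FPKM + 0.5, given with the standard error (SE), and they understate the change of members with low levels. Calls are adjusted p-values under 0.05 from limma with Benjamini-Hochberg adjustment over all 12379 genes. Of the 37 tested members, 9 had fewer than 3 NIH-3T3 libraries at the filter and entered the test through MLg (Ifih1, Zbp1, Usp18, Ifit1, Oasl2, Mx1, Mx2, Gbp7 and Iigp1), and Mx2 entered through the MLg control libraries alone.

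Hedgehog targets responded in both lines. Gli1, the transcriptional reporter of Hedgehog signalling, was at 151, 149.8 and 139 FPKM in NIH-3T3 SHHN libraries against 0.129, 0.0840 and 0.179 FPKM in NIH-3T3 control libraries, and at 128, 118 and 113 FPKM in MLg SHHN libraries against 0.906, 0.428 and 0.414 FPKM in MLg control libraries. NIH-3T3 control replicate 2 stood apart, with the fewest genes above 0 (13401 against 13957 to 14793 in the other 11 libraries). It also had the highest total FPKM (659862 against 470218 to 614096 in the other 11 libraries). Fibroblast marker genes carried 10672 to 19976 FPKM in sum per library, while the epithelial list summed to at most 0.675 FPKM. Thy1, a fibroblast surface marker, was at most 0.106 FPKM in MLg libraries against at least 115 FPKM in NIH-3T3 libraries, and the mesothelial gene Msln reached 54.9 to 80.6 FPKM in MLg.

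Promoter windows give the sequence setting of the members. RefSeq windows of assembly GRCm38.p6, covering 250 bases before to 50 bases after the annotated start, matched 32 of the 42 members. The core of the response element was searched as GAAA, any 2 bases and GAAA on either strand, overlapping matches counted, and occurred in 17 of the 32 members (53.1%), against 3.99% of all 27025 genes with windows and 3.61% of the 9384 tested genes with windows. The interferon-gamma type element TTCNNNGAA, which reads the same on both strands, occurred in 9 members (28.1%), against 9.55% of all genes and 8.19% of tested genes. A match is a string of letters and does not show that a factor binds there. The windows of 6 members whose levels are given below in every library, and which hold the response element core, follow in the direction of transcription, from 250 bases before to 30 bases after the start, with the core in capitals.
Ifit1: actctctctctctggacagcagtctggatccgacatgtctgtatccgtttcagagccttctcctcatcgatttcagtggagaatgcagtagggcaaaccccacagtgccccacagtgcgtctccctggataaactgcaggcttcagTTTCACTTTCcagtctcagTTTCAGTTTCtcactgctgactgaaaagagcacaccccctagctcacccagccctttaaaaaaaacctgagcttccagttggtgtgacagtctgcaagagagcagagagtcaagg
Ifit3: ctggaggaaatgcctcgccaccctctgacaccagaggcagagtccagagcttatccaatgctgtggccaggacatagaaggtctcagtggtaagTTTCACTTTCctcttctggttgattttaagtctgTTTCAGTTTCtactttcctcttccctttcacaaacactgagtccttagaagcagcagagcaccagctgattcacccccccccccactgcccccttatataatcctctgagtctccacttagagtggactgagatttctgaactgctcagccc
Irgm1: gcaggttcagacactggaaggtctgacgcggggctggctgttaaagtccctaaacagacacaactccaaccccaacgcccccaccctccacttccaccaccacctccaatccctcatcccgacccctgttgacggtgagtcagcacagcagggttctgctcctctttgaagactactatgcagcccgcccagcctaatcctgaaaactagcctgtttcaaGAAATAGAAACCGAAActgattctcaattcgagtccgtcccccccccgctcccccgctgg
Stat2: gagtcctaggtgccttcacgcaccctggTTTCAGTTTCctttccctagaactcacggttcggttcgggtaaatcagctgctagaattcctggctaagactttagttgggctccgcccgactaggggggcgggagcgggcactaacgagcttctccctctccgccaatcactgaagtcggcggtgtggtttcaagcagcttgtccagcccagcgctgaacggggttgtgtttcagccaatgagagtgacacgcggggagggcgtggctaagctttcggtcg
Isg15: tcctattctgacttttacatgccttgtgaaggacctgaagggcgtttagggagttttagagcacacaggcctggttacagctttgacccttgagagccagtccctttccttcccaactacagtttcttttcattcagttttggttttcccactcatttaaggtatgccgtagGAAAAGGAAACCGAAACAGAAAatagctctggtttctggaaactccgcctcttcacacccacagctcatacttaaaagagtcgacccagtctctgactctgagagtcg
Ddx58: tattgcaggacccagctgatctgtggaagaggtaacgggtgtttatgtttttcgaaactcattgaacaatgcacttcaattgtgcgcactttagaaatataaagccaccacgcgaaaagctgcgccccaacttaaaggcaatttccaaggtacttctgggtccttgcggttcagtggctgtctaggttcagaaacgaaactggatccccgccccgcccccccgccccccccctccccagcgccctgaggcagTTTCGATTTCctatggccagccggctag
In GRCm38 these stretches are chr19:34640639-34640918 (plus strand, Ifit1), chr19:34583279-34583558 (plus, Ifit3), chr11:48871391-48871670 (minus, Irgm1), chr10:128270248-128270527 (plus, Stat2), chr4:156200789-156201068 (minus, Isg15) and chr4:40239796-40240075 (minus, Ddx58).

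The windows differ in how the core is laid out. Ifit1 and Ifit3 hold the pair TTTCACTTTC and TTTCAGTTTC, which begin 104 and 85 bases before the Ifit1 start and 156 and 122 bases before the Ifit3 start. In Isg15, 3 overlapping cores form 1 unbroken run that begins 78 bases before the start, and in Irgm1 a pair of overlapping cores begins 30 bases before it. The Stat2 core lies 222 bases before the start, and the Ddx58 core begins 2 bases past the annotated start. No match to the core was found in the windows of Cmpk2, Ifi44, Oasl2, Xaf1, Irf1, Irf7 and Irf9. Among members with a window, 10 of the 19 called lower in MLg held the core, as did 4 of the other 9 tested, and 5 of the 11 called lower in NIH-3T3 held it, as did 9 of the other 17 tested.

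**Figure D1:**
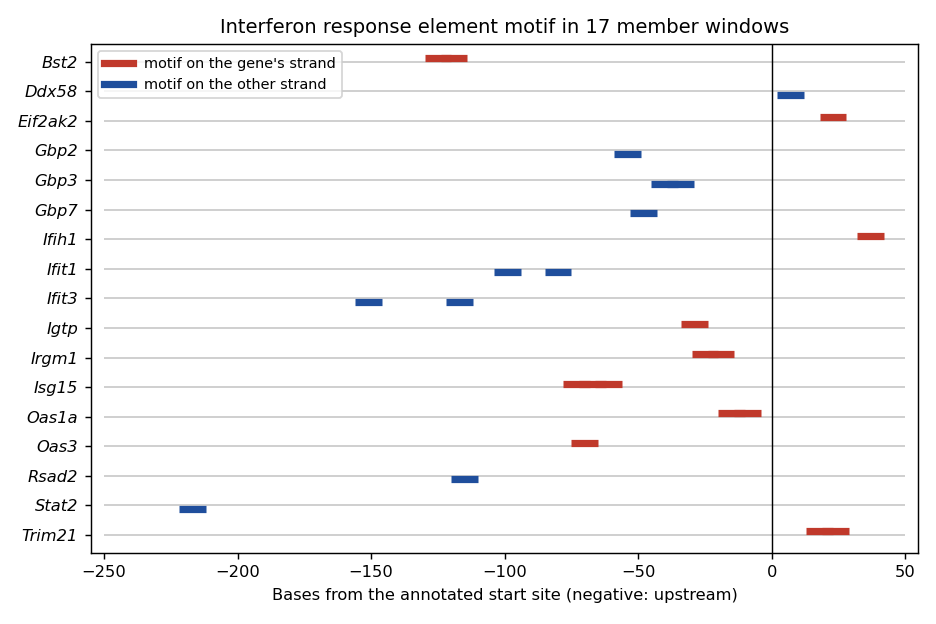
Each row is 1 of the 17 members whose promoter window holds the response element core, the horizontal axis gives bases from the annotated start site, and a bar marks each match, red on the gene's strand and blue on the other. The Stat2 match begins 222 bases before the start, the matches of Ddx58, Eif2ak2, Ifih1 and Trim21 lie after it, and the others begin at most 156 bases before it.

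SHHN-treated cells of both lines had lower levels of many interferon-stimulated genes than their vehicle controls. In NIH-3T3, 13 of the 37 tested members fell and 2 rose (Cmpk2 and Samhd1), while 14.8% of all tested genes were called lower and 16.6% higher. In MLg, 26 members fell, Mx2 among them, and 1 rose (Cmpk2), while 10.0% of all tested genes were called lower and 12.8% higher. The fall of Mx2 is a description, since it entered the test through the MLg control libraries alone. Together 15 members were called in NIH-3T3, against 31.4% of all tested genes, and 27 in MLg, against 22.8%. The median fold change of the tested members was -0.38 in NIH-3T3 and -0.64 in MLg, where all tested genes had medians of -0.01 and -0.00. Every member that fell in NIH-3T3 also fell in MLg (13 of 13, and 50% of the 26 that fell in MLg), where 28.4% of all tested genes called lower in NIH-3T3 were also called lower in MLg, which is 41.9% of those lower in MLg. A further 13 members were called lower in MLg without a call in NIH-3T3, and 9 were called in neither line. Summed over all 42 members, the level was 155 to 168 FPKM in NIH-3T3 SHHN libraries against 202 to 206 FPKM in NIH-3T3 control libraries, and 297 to 307 FPKM in MLg SHHN libraries against 450 to 473 FPKM in MLg control libraries. Totals over all genes also differed: 494531 to 542742 FPKM in NIH-3T3 SHHN libraries against 545656 to 659862 FPKM in NIH-3T3 control libraries. In MLg the totals were 470218 to 520381 FPKM with SHHN against 502807 to 543999 FPKM with vehicle. The part of these totals in the summed member levels was not tested. Bst2 alone held 8.17% of the summed mean levels in NIH-3T3 SHHN and 12.9% in NIH-3T3 control libraries. It held 28.9% in MLg SHHN and 31.0% in MLg control libraries, so the MLg sums lean on this gene.

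**Figure D2:**
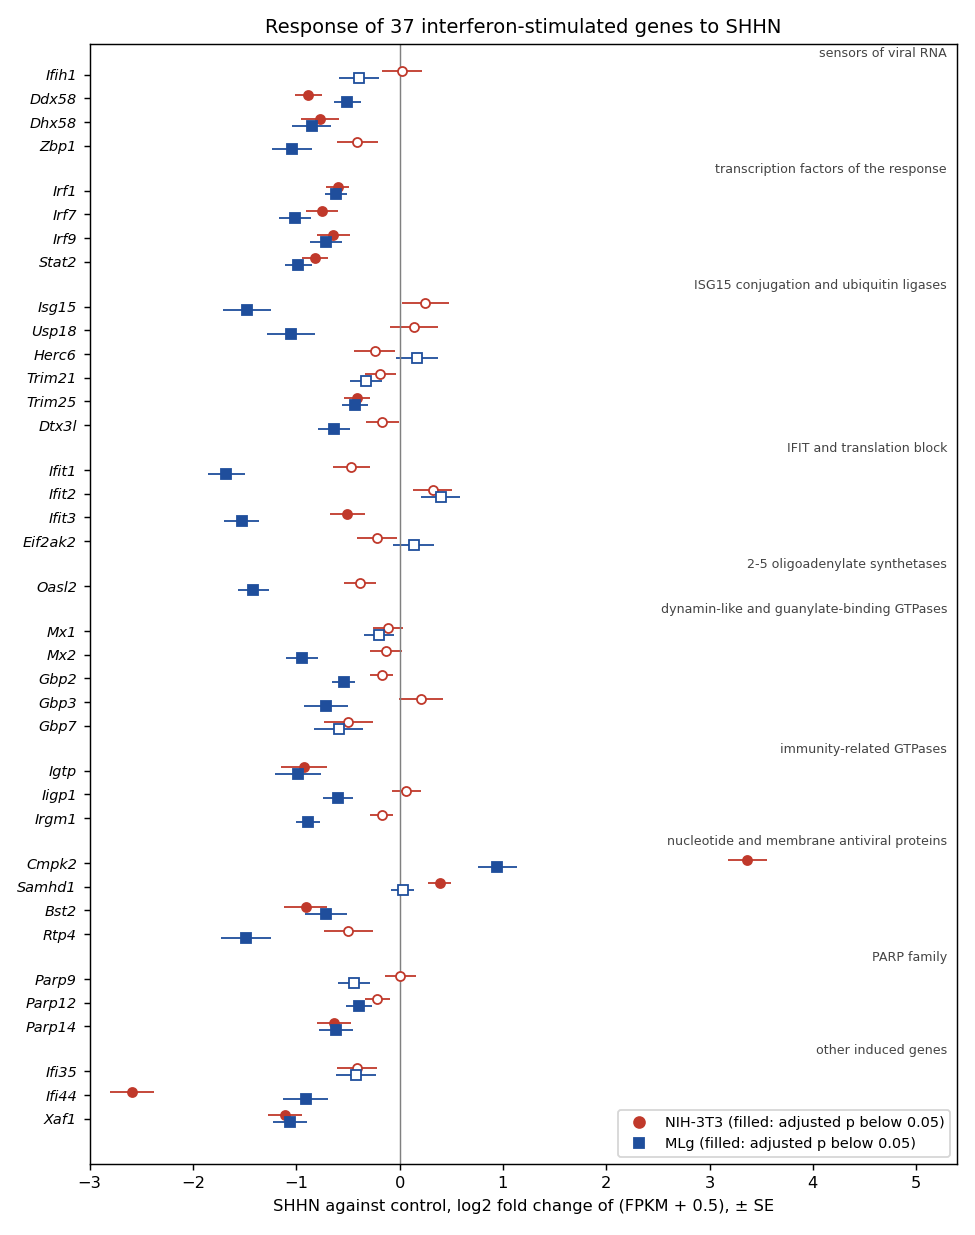
Log2 fold change of FPKM + 0.5 with SE for SHHN against control, for the 37 tested members in rows ordered by role, with NIH-3T3 as red circles and MLg as blue squares (3 libraries a group; filled where the adjusted p was under 0.05). Most symbols lie left of 0, Cmpk2 lies to the right in both lines, and Ifi44 in NIH-3T3 lies farthest left at -2.59.

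The size of the falls depends on the 0.5 FPKM that was added. When a change of at least 2-fold on that scale was required beside the p-value, 2 members were called lower and 1 higher in NIH-3T3, against 3.57% and 6.53% of all tested genes, and 9 lower and 0 higher in MLg, against 2.56% and 5.25%. With nothing added, the mean FPKM of SHHN libraries was at least 2-fold lower for 8 of the 13 members called lower in NIH-3T3 and for 14 of the 26 in MLg. The control and SHHN libraries did not overlap for 16 members that were lower and 2 that were higher in NIH-3T3, against 18.8% and 21.6% of all tested genes, and for 30 lower and 2 higher in MLg, against 20.0% and 21.4%. Restricting the count to the 31 members that averaged at least 1 FPKM over the 12 libraries gave 12 lower and 2 higher in NIH-3T3, and 22 lower and 1 higher in MLg. The shares of all tested genes under that restriction were not computed, so these counts have no background. The NIH-3T3 median was -0.22 when no filter was applied and also with a pseudocount of 1. Without NIH-3T3 control replicate 2, 15 members were called lower and 1 higher in NIH-3T3, and leaving out SHHN replicate 3 of that line also gave a count of 1 higher.

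**Figure D3:**
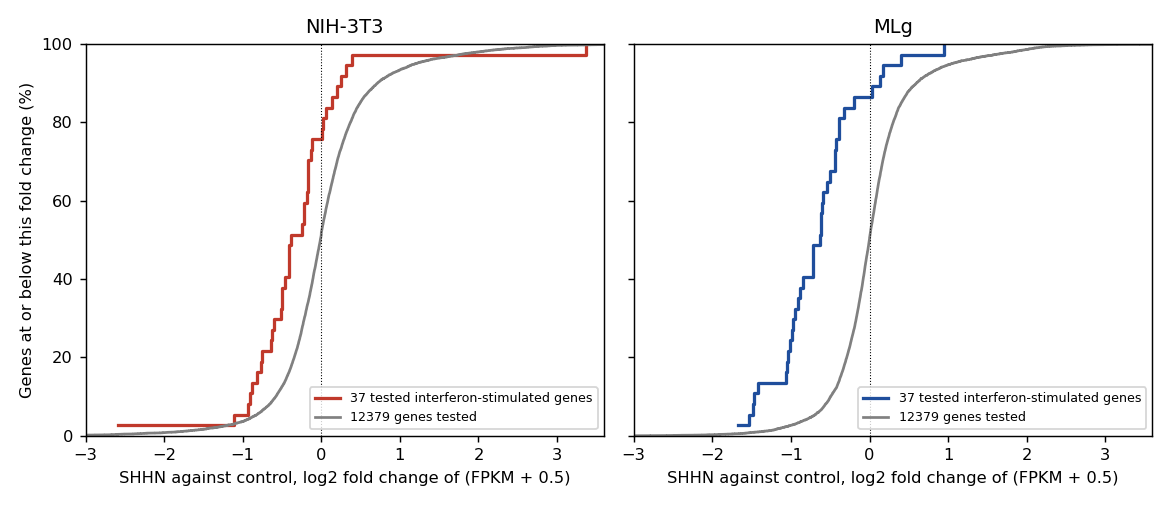
Cumulative percentage of genes at or below a given log2 fold change of FPKM + 0.5 (SHHN against control) in NIH-3T3 and in MLg, for the 37 tested members (coloured steps) and all 12379 tested genes (grey); values beyond the axis are not drawn. The member curves lie left of the grey curves over most of their length, with medians of -0.38 and -0.64 against -0.01 and -0.00.

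Some cell type markers also differed between treatments, while several of the marker sums overlapped. Summed leukocyte markers were 0.806 to 1.82 FPKM in NIH-3T3 SHHN libraries against 1.19 to 2.11 FPKM in NIH-3T3 control libraries, and 1.01 to 1.92 FPKM in MLg SHHN libraries against 2.40 to 3.53 FPKM in MLg control libraries. Of these 12 markers, Cd3e and Adgre1 were listed at 0 in all 12 libraries and Ptprc reached at most 0.101 FPKM. Of the 3 leukocyte markers tested, Cd74 was called lower in MLg (-0.89, adjusted p = 0.0163), Lyz2 was called higher in NIH-3T3 (0.75, adjusted p = 0.0289) and Cd68 was not called. Summed endothelial markers were 6.73 to 25.3 FPKM in NIH-3T3 SHHN libraries against 5.75 to 7.93 FPKM in NIH-3T3 control libraries, and 5.78 to 6.53 FPKM in MLg SHHN libraries against 0.101 to 0.164 FPKM in MLg control libraries. Those sums came from Cdh5 and Tek, while Emcn was listed at 0 throughout and Kdr reached at most 0.0128 FPKM. Summed fibroblast markers were 12671 to 14398 FPKM in NIH-3T3 SHHN libraries against 18760 to 19976 FPKM in NIH-3T3 control libraries, and 10672 to 12451 FPKM in MLg SHHN libraries against 11854 to 14110 FPKM in MLg control libraries. Of the 12 fibroblast markers, 8 were called lower and 1 higher in NIH-3T3, against 14.8% and 16.6% of all tested genes. In MLg 4 were called lower and 0 higher, against 10.0% and 12.8%. Their median fold change was -0.58 in NIH-3T3 and -0.13 in MLg. Summed mesothelial markers were 2.31 to 5.57 FPKM in NIH-3T3 SHHN libraries against 1.51 to 1.98 FPKM in NIH-3T3 control libraries, and 55.4 to 64.5 FPKM in MLg SHHN libraries against 57.9 to 82.6 FPKM in MLg control libraries. Of the 3 tested, Msln and Upk3b were called higher in NIH-3T3 (adjusted p = 0.0431 and 0.0156), and Lrrn4 was called lower in MLg (-1.14, adjusted p = 0.000393). The part of these marker genes in the members' change was not tested, and in these bulk samples fewer cells of a type and less RNA per cell cannot be told apart.

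The transcription factors of the response fell together: all 4 members of this group were called lower in both lines. STAT2 is the STAT protein specific to type I and type III interferon signalling. Stat2 was at 10.8, 9.03 and 8.44 FPKM in NIH-3T3 SHHN libraries 1, 2 and 3, against 17.0, 15.8 and 18.1 FPKM in NIH-3T3 control libraries, with values listed in replicate order here and below. MLg SHHN libraries held 8.88, 8.33 and 9.21 FPKM, against 20.7, 16.3 and 16.8 FPKM in MLg control libraries. All 6 treated libraries lay under all 6 control libraries, and the fold changes were -0.82 ± 0.13 in NIH-3T3 (adjusted p = 0.000251) and -0.98 ± 0.13 in MLg (adjusted p = 6.55e-05). Irf9, the DNA-binding partner of the STAT proteins in ISGF3, averaged 3.82 ± 0.417 FPKM in NIH-3T3 SHHN and 6.29 ± 1.25 FPKM in NIH-3T3 control libraries, and 7.16 ± 0.750 FPKM in MLg SHHN and 12.1 ± 1.65 FPKM in MLg control libraries (SD, n = 3 each). Its fold change was -0.64 ± 0.16 in NIH-3T3 (adjusted p = 0.00687) and -0.71 ± 0.16 in MLg (adjusted p = 0.00443).

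IRF7 is the factor that amplifies interferon-alpha production once a virus is sensed, and IRF1 drives part of the interferon-gamma response. Irf7 was low in NIH-3T3, at 0.498, 0.375 and 0.286 FPKM in SHHN libraries, against 1.02, 1.19 and 0.776 FPKM in control libraries. MLg held more, with 1.42, 1.15 and 1.48 FPKM in SHHN libraries, against 3.56, 2.95 and 3.18 FPKM in control libraries. Treated and control libraries were apart in each line, and the fold changes were -0.75 ± 0.16 in NIH-3T3 (adjusted p = 0.00224) and -1.01 ± 0.16 in MLg (adjusted p = 0.000276). Irf1 was the highest of the 4 factors, at 13.5, 12.6 and 13.9 FPKM in NIH-3T3 SHHN libraries, against 19.5, 22.6 and 19.4 FPKM in NIH-3T3 control libraries. The MLg libraries held 26.9, 26.0 and 25.7 FPKM with SHHN, against 44.8, 40.3 and 36.4 FPKM with vehicle. Irf1 libraries did not overlap between treatments either, and its fold changes were -0.60 ± 0.11 in NIH-3T3 (adjusted p = 0.000771) and -0.61 ± 0.11 in MLg (adjusted p = 0.000819). The difference of the Irf1 effect between the lines was 0.01 ± 0.15.

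Of the 4 sensors of viral nucleic acid, 2 fell in NIH-3T3 and 3 in MLg. Ddx58 encodes RIG-I, which detects the ends of viral RNA. It was at 3.35, 3.44 and 3.94 FPKM in NIH-3T3 SHHN libraries, against 7.59, 5.79 and 7.81 FPKM in NIH-3T3 control libraries. The MLg values were 16.2, 17.3 and 16.2 FPKM with SHHN, against 22.2, 22.7 and 26.5 FPKM with vehicle. No treated library reached the lowest control library of its line, and the fold changes were -0.88 ± 0.13 in NIH-3T3 (adjusted p = 0.00016) and -0.51 ± 0.13 in MLg (adjusted p = 0.0124). The MLg call was lost without SHHN replicate 3 (adjusted p = 0.0519) or control replicate 3 (adjusted p = 0.0535). Dhx58, which encodes the regulatory relative LGP2, fell by 0.77 on the log2 scale in NIH-3T3 (adjusted p = 0.00602) and by 0.85 in MLg (adjusted p = 0.00406). Zbp1, a sensor of left-handed nucleic acid, was listed at 0 in the 3 NIH-3T3 SHHN libraries and averaged 0.172 ± 0.123 FPKM in NIH-3T3 control libraries, with no call (adjusted p = 0.136). In MLg Zbp1 fell, with a fold change of -1.04 ± 0.20 (adjusted p = 0.00151). Ifih1, which encodes the long RNA sensor MDA5, was not called in NIH-3T3 (0.02 ± 0.19) or in MLg (-0.39 ± 0.19).

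ISG15 is a ubiquitin-like protein that is attached to other proteins, and USP18 removes it and also damps receptor signalling. Isg15 was at 10.9, 8.17 and 9.62 FPKM in NIH-3T3 SHHN libraries, against 7.66, 9.45 and 6.85 FPKM in NIH-3T3 control libraries. Isg15 in MLg stood at 1.91, 3.01 and 3.80 FPKM in SHHN libraries, against 12.2, 7.60 and 7.16 FPKM in control libraries. The NIH-3T3 groups overlapped (0.25 ± 0.23, adjusted p = 0.454), whereas all MLg SHHN libraries lay under all MLg control libraries (-1.48 ± 0.23, adjusted p = 0.000305). Usp18 was at 0.112, 0.170 and 0.115 FPKM in NIH-3T3 SHHN libraries, against 0.256, 0 and 0 FPKM in NIH-3T3 control libraries, all under 0.5 FPKM. MLg libraries held 1.0, 0.498 and 0.476 FPKM with SHHN, against 1.24, 2.16 and 2.32 FPKM with vehicle. The MLg groups were apart, with a fold change of -1.05 ± 0.23 (adjusted p = 0.00447).

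Of the 4 ubiquitin ligases in the list, 1 fell in NIH-3T3 and 2 fell in MLg. Trim25, a ligase that activates RIG-I, was at 14.7, 15.3 and 15.4 FPKM in NIH-3T3 SHHN libraries, against 22.7, 16.7 and 22.1 FPKM in NIH-3T3 control libraries. In MLg it was at 6.37, 6.42 and 5.71 FPKM in SHHN libraries, against 8.59, 7.93 and 9.0 FPKM in control libraries. Treated libraries lay under control libraries in each line, with fold changes of -0.42 ± 0.13 in NIH-3T3 (adjusted p = 0.0232) and -0.43 ± 0.13 in MLg (adjusted p = 0.0242). Its NIH-3T3 call was lost without SHHN replicates 1 or 2 or control replicate 1 or 3 (adjusted p = 0.0644, 0.0588, 0.0872 and 0.0857). Its MLg call was lost without SHHN replicate 1, 2 or 3 or control replicate 1 or 3 (adjusted p = 0.0541, 0.0502, 0.104, 0.0641 and 0.0726). Dtx3l, a ligase that works with PARP9, fell in MLg (-0.64 ± 0.16, adjusted p = 0.00954) and was not called in NIH-3T3 (-0.17 ± 0.16). Dtx3l and Parp9 share 682 bases of the annotation on opposite strands, and whether strand was used in the quantification is not given in the sources used here. Trim21, an intracellular antibody receptor with ligase activity, had fold changes of -0.19 ± 0.15 in NIH-3T3 and -0.33 ± 0.15 in MLg with no call, and Herc6, the ligase for ISG15 in mice, had -0.24 ± 0.20 and 0.17 ± 0.20 with no call.

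IFIT proteins bind foreign RNA and block its translation, and their genes lie side by side on chromosome 19. Ifit1 was at 0.382, 0.134 and 0.336 FPKM in NIH-3T3 SHHN libraries, against 0.625, 0.369 and 0.763 FPKM in NIH-3T3 control libraries. MLg SHHN libraries held 0.404, 0.628 and 0.634 FPKM, against 2.79, 2.80 and 2.98 FPKM in MLg control libraries. The NIH-3T3 groups overlapped, with no call (-0.47 ± 0.18, adjusted p = 0.0634), and the MLg groups were far apart (-1.68 ± 0.18, adjusted p = 1.11e-05). Without NIH-3T3 control replicate 2 the NIH-3T3 change of Ifit1 passed the threshold (adjusted p = 0.0182). Ifit3 was at 0.362, 0.424 and 0.196 FPKM in NIH-3T3 SHHN libraries, against 0.592, 0.657 and 0.759 FPKM in NIH-3T3 control libraries. MLg libraries held 0.957, 1.59 and 1.57 FPKM with SHHN, against 5.09, 4.97 and 4.47 FPKM with vehicle. Neither line's groups overlapped, and the fold changes were -0.51 ± 0.17 in NIH-3T3 (adjusted p = 0.0364) and -1.53 ± 0.17 in MLg (adjusted p = 1.57e-05). The NIH-3T3 call of Ifit3 was lost without SHHN replicate 1 or 3 or control replicate 2 or 3 (adjusted p = 0.0570, 0.135, 0.0543 and 0.111), and reads of Ifit3 may be split with its near copy Ifit3b.

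Their neighbour Ifit2 was not called in either line. It averaged 8.34 ± 0.672 FPKM in NIH-3T3 SHHN and 6.82 ± 2.17 FPKM in NIH-3T3 control libraries, and 11.6 ± 0.472 FPKM in MLg SHHN and 8.75 ± 0.918 FPKM in MLg control libraries (SD, n = 3 each). The fold changes were 0.32 ± 0.19 in NIH-3T3 (adjusted p = 0.227) and 0.40 ± 0.19 in MLg (adjusted p = 0.164), neither called, although the MLg SHHN libraries all lay above the MLg control libraries. Without NIH-3T3 control replicate 2, the MLg change passed the threshold (adjusted p = 0.0182) and the count of members called higher in MLg was 2. Eif2ak2, which encodes the translation-blocking kinase PKR, had fold changes of -0.22 ± 0.19 in NIH-3T3 and 0.14 ± 0.19 in MLg with no call. Oasl2, the 1 oligoadenylate synthetase relative that passed the filter, was at 0.173, 0.0522 and 0.102 FPKM in NIH-3T3 SHHN libraries, against 0.430, 0.203 and 0.261 FPKM in NIH-3T3 control libraries. The MLg values were 1.55, 1.66 and 1.98 FPKM with SHHN, against 5.42, 5.84 and 5.07 FPKM with vehicle. Treated and control libraries did not overlap in either line, with a fold change of -1.42 ± 0.15 in MLg (adjusted p = 1.13e-05) and -0.38 ± 0.15 in NIH-3T3 (adjusted p = 0.0709). Without NIH-3T3 control replicate 2, Oasl2 passed in NIH-3T3 (adjusted p = 0.0403).

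**Figure D4:**
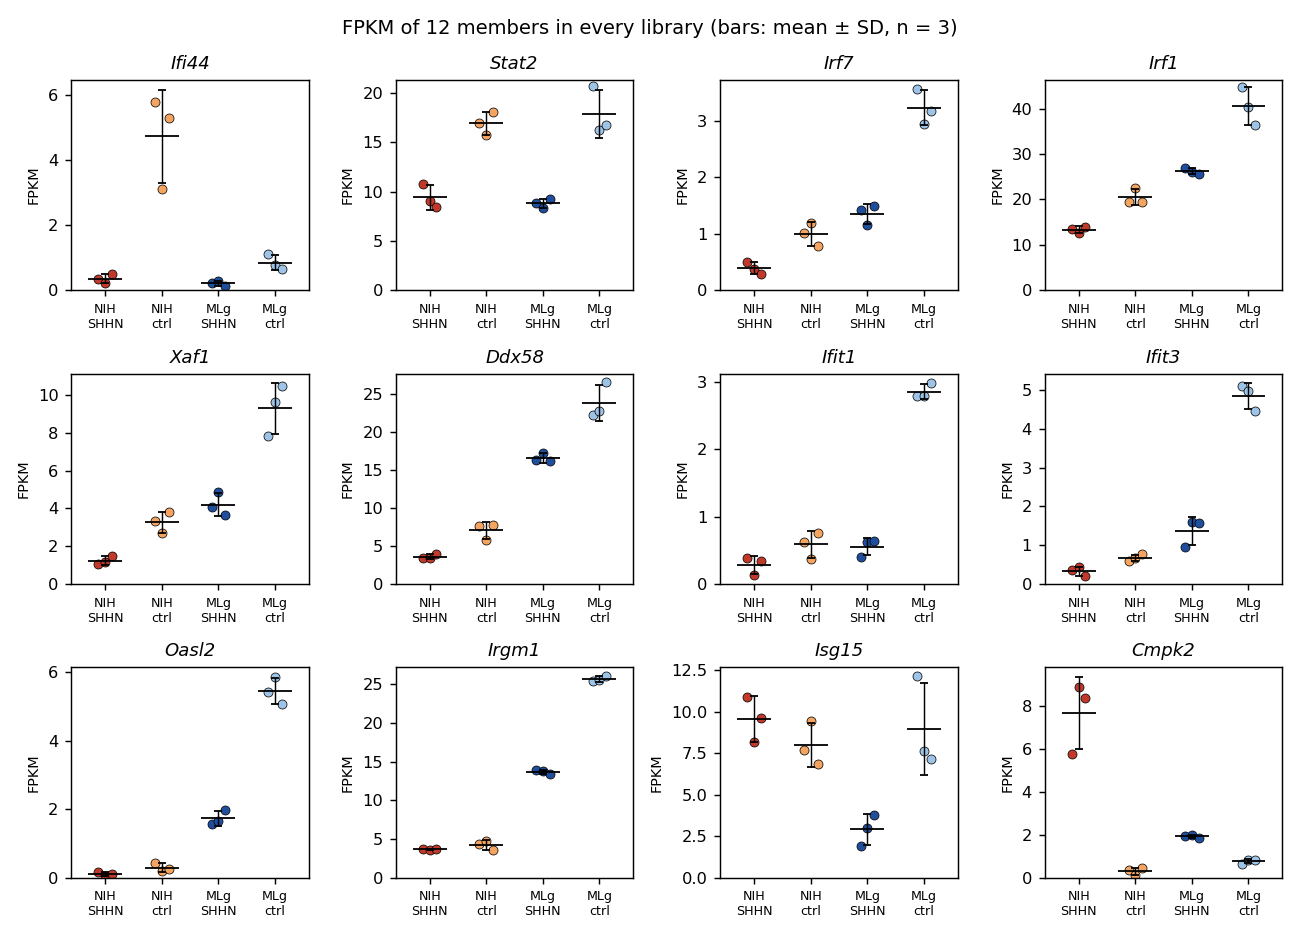
FPKM of 12 members in every library (points), with the mean and SD of the 3 libraries in each of the 4 groups, NIH-3T3 SHHN, NIH-3T3 control, MLg SHHN and MLg control; each vertical axis starts at 0 and has its own scale. Stat2, Irf7, Irf1, Xaf1 and Ddx58 are lower with SHHN in both lines, Isg15 separates in MLg and overlaps in NIH-3T3, and Cmpk2 is highest in NIH-3T3 SHHN libraries at 5.78 to 8.89 FPKM.

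Of the dynamin-like and guanylate-binding GTPases, 3 of 5 fell in MLg, and limma called 0 of 5 in NIH-3T3, where 0 had an unadjusted p under 0.05. Mx2, a dynamin-like antiviral GTPase, was at 0, 0.0255 and 0.0271 FPKM in NIH-3T3 SHHN libraries, against 0.0794, 0.0310 and 0.0914 FPKM in NIH-3T3 control libraries. Mx2 in MLg stood at 0.442, 0.197 and 0.198 FPKM in SHHN libraries, against 0.958, 1.15 and 0.860 FPKM in control libraries. Mx2 was near 0 in NIH-3T3, and in MLg its treated libraries lay under its control libraries (-0.94 ± 0.16), but it entered the test through those control libraries alone, where it was high, so this fall is a description. Mx1, its paralogue, had a fold change of -0.20 ± 0.14 in MLg with no call. Gbp2, a guanylate-binding protein that acts on pathogen vacuoles, fell in MLg (-0.54 ± 0.11, adjusted p = 0.00251) and was not called in NIH-3T3 (-0.17 ± 0.11). Gbp3 was at 0.255, 0.884 and 0.819 FPKM in NIH-3T3 SHHN libraries, against 0.564, 0.519 and 0.328 FPKM in NIH-3T3 control libraries. MLg libraries held 4.01, 2.99 and 4.03 FPKM with SHHN, against 6.49, 6.33 and 6.07 FPKM with vehicle. Gbp3 overlapped between treatments in NIH-3T3 and was apart in MLg (-0.71 ± 0.21, adjusted p = 0.0268). The Gbp3 call in MLg was lost with the replicate block (adjusted p = 0.0513) and without SHHN replicate 2 or 3 or control replicate 1, 2 or 3 (adjusted p = 0.113, 0.0512, 0.0737, 0.0731 and 0.0524). Without NIH-3T3 SHHN replicate 1, Gbp3 was called higher in NIH-3T3 (adjusted p = 0.0484). Gbp7 had fold changes of -0.50 ± 0.24 in NIH-3T3 and -0.59 ± 0.24 in MLg with no call, and without NIH-3T3 control replicate 2 it passed in both lines (adjusted p = 0.00648 in NIH-3T3 and 0.0226 in MLg). Gbp3 and Gbp7 are near copies, and reads may be split between them.

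The immunity-related GTPases, which in mice act on vacuoles that hold parasites and bacteria, fell in MLg for 3 of 3 members and in NIH-3T3 for 1 of 3. Irgm1, a regulator of this family, was at 3.77, 3.59 and 3.66 FPKM in NIH-3T3 SHHN libraries, against 4.41, 4.74 and 3.57 FPKM in NIH-3T3 control libraries. In MLg it was at 13.9, 13.8 and 13.4 FPKM in SHHN libraries, against 25.4, 25.6 and 26.1 FPKM in control libraries. The MLg groups were tight and apart (-0.88 ± 0.11, adjusted p = 6.02e-05), and the NIH-3T3 groups overlapped (-0.17 ± 0.11, adjusted p = 0.276). Iigp1, an effector of the family, was at 0, 0 and 0.0738 FPKM in NIH-3T3 SHHN libraries, against 0, 0 and 0 FPKM in NIH-3T3 control libraries. MLg SHHN libraries held 1.22, 0.950 and 0.926 FPKM, against 1.68, 1.69 and 2.09 FPKM in MLg control libraries. Iigp1 was nearly absent from the NIH-3T3 values and fell in MLg (-0.60 ± 0.14, adjusted p = 0.00747). Igtp, another regulator, fell in both lines, by 0.93 on the log2 scale in NIH-3T3 (adjusted p = 0.0061) and by 0.98 in MLg (adjusted p = 0.00538). Its NIH-3T3 call was lost with 6 libraries per fit (adjusted p = 0.0559).

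Cmpk2 was the 1 member called higher in both lines. It encodes a mitochondrial nucleotide kinase and is usually induced by interferon together with its neighbour Rsad2. Cmpk2 was at 5.78, 8.89 and 8.39 FPKM in NIH-3T3 SHHN libraries, against 0.339, 0.106 and 0.440 FPKM in NIH-3T3 control libraries. The MLg values were 1.95, 2.0 and 1.85 FPKM with SHHN, against 0.660, 0.822 and 0.811 FPKM with vehicle. Every treated library lay above every control library, and the rise was 3.37 ± 0.19 in NIH-3T3 (adjusted p = 1.94e-08) and 0.95 ± 0.19 in MLg (adjusted p = 0.00212). Rsad2, the antiviral gene viperin, whose start lies 12752 bases from that of Cmpk2 on chromosome 12 and which is read in the opposite direction, was at 0.0381, 0.0562 and 0.0772 FPKM in NIH-3T3 SHHN libraries, against 0, 0.0213 and 0 FPKM in NIH-3T3 control libraries. It was at 0, 0.113 and 0.0857 FPKM in MLg SHHN libraries, against 0.0347, 0.104 and 0.0479 FPKM in MLg control libraries, too low to test. Samhd1, which depletes the nucleotides that viruses copy their DNA from, was at 20.7, 19.6 and 22.6 FPKM in NIH-3T3 SHHN libraries, against 15.9, 13.8 and 18.2 FPKM in NIH-3T3 control libraries. Samhd1 in MLg stood at 24.4, 24.4 and 23.7 FPKM in SHHN libraries, against 22.9, 23.5 and 24.5 FPKM in control libraries. Samhd1 was higher in every treated NIH-3T3 library (0.39 ± 0.11, adjusted p = 0.0166) and overlapped in MLg (0.03 ± 0.11, adjusted p = 0.884). Its NIH-3T3 call was lost without SHHN replicate 3 (adjusted p = 0.0602) or control replicate 2 (adjusted p = 0.0524).

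Bst2, which encodes tetherin, had the highest mean level of any member in MLg control libraries. It was at 13.5, 11.6 and 14.2 FPKM in NIH-3T3 SHHN libraries, against 19.4, 38.9 and 20.5 FPKM in NIH-3T3 control libraries. In MLg it was at 82.2, 87.0 and 91.8 FPKM in SHHN libraries, against 154, 151 and 125 FPKM in control libraries. Treated libraries were lower throughout, and control replicate 2 of NIH-3T3 was well above the other control libraries of that line. The fold changes were -0.91 ± 0.21 in NIH-3T3 (adjusted p = 0.00412) and -0.71 ± 0.21 in MLg (adjusted p = 0.0229). Without NIH-3T3 control replicate 2 the NIH-3T3 change was -0.59 (adjusted p = 0.00285), and with 6 libraries per fit it was not called (adjusted p = 0.0597). The MLg call was lost without SHHN replicate 1, 2 or 3 or control replicate 1 or 2 (adjusted p = 0.0772, 0.0589, 0.0523, 0.0788 and 0.0790). Rtp4, a chaperone that in mice restrains the interferon response, fell in MLg (-1.49 ± 0.24, adjusted p = 0.000384). In NIH-3T3 Rtp4 had -0.50 ± 0.24 with no call (adjusted p = 0.132), and without NIH-3T3 SHHN replicate 3 it passed (adjusted p = 0.0193).

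Of the PARP family, whose members attach ADP-ribose to proteins, 1 of 3 fell in NIH-3T3 and 2 of 3 in MLg. Parp14 fell by 0.63 on the log2 scale in NIH-3T3 (adjusted p = 0.01) and by 0.61 in MLg (adjusted p = 0.0155). In MLg the Parp14 call was lost with the replicate block (adjusted p = 0.0525) and without SHHN replicate 3 or control replicate 1 or 3 (adjusted p = 0.0714, 0.0605 and 0.0522). Parp12 averaged 19.3 ± 0.248 FPKM in MLg SHHN and 25.5 ± 1.73 FPKM in MLg control libraries (SD, n = 3 each), a fall of -0.39 ± 0.12 (adjusted p = 0.0324). That call was lost without SHHN replicate 1, 2 or 3 or control replicate 2 or 3 (adjusted p = 0.0951, 0.0834, 0.0877, 0.102 and 0.0904). Parp9 had 0.01 ± 0.15 in NIH-3T3 and -0.44 ± 0.15 in MLg (adjusted p = 0.052) with no call, and in MLg it passed without NIH-3T3 control replicate 1, 2 or 3 (adjusted p = 0.0449, 0.0393 and 0.0191).

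Ifi44, an interferon-induced gene with antiviral effects, had the largest fall among the tested members in NIH-3T3. It was at 0.352, 0.213 and 0.497 FPKM in NIH-3T3 SHHN libraries, against 5.80, 3.11 and 5.31 FPKM in NIH-3T3 control libraries. MLg SHHN libraries held 0.211, 0.288 and 0.142 FPKM, against 1.12, 0.766 and 0.663 FPKM in MLg control libraries. Groups were apart in each line, and the fold changes were -2.59 ± 0.22 in NIH-3T3 (adjusted p = 7.92e-07) and -0.91 ± 0.22 in MLg (adjusted p = 0.00744). Xaf1, which promotes cell death by binding the inhibitor XIAP, was at 1.06, 1.17 and 1.49 FPKM in NIH-3T3 SHHN libraries, against 3.32, 2.69 and 3.79 FPKM in NIH-3T3 control libraries. The MLg values were 4.09, 4.86 and 3.65 FPKM with SHHN, against 7.82, 9.65 and 10.5 FPKM with vehicle. Xaf1 was lower in every treated library of each line, with fold changes of -1.11 ± 0.16 in NIH-3T3 (adjusted p = 0.000156) and -1.06 ± 0.16 in MLg (adjusted p = 0.0003). Ifi35, a binding partner of the STAT-interacting protein NMI, had -0.41 ± 0.19 in NIH-3T3 and -0.42 ± 0.19 in MLg with no call. With the replicate block Ifi35 passed in MLg (adjusted p = 0.0379), and it also did without NIH-3T3 control replicate 2 (adjusted p = 0.0354).

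The SHHN effect differed between the lines for 10 of the 37 tested members, where 13.4% of all tested genes were called in this comparison. The difference was taken as the NIH-3T3 effect minus the MLg effect, and it was higher for 9 members and lower for 1, against 7.48% and 5.95% of all tested genes. With a difference of at least 2-fold also required, it was higher for 6 and lower for 1, against 3.92% and 2.92%. With p as the only threshold, the 28 tested members with 3 or more NIH-3T3 libraries at the filter had 4 higher and 1 lower. The shares of all tested genes under that restriction were not computed. The other 5 calls, all higher, were of members that entered the test through MLg. Cmpk2 rose more in NIH-3T3 (2.42 ± 0.27, adjusted p = 6.39e-05) and Ifi44 fell more in NIH-3T3 (-1.68 ± 0.31, adjusted p = 0.00279). For Isg15 (1.72 ± 0.32, adjusted p = 0.00336) and Irgm1 (0.71 ± 0.16, adjusted p = 0.011), the fall in MLg exceeded the NIH-3T3 effect. Ifit1 (1.21 ± 0.25), Oasl2 (1.03 ± 0.21), Ifit3 (1.02 ± 0.24), Usp18 (1.19 ± 0.33), Mx2 (0.81 ± 0.22) and Iigp1 (0.66 ± 0.20) were also called, with adjusted p-values from 0.0064 to 0.0448. For 5 of these, Ifit1, Oasl2, Usp18, Mx2 and Iigp1, fewer than 3 NIH-3T3 libraries reached 0.5 FPKM, so little fall could be measured in NIH-3T3. Mx2 entered through the MLg control libraries alone, where it was high, so its difference is a description and no test. With a pseudocount of 0.1 the count called higher was 3, and Ifit1, Oasl2, Ifit3, Usp18, Mx2 and Iigp1 lost the call (adjusted p = 0.0672, 0.271, 0.129, 0.0631, 0.142 and 0.111), while a pseudocount of 1 gave 11 called higher.

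Several of these calls lay near the threshold. With the replicate block Usp18, Mx2 and Iigp1 lost the call (adjusted p = 0.0728, 0.0553 and 0.0906). Mx2 lost it without SHHN replicate 2 or 3 of NIH-3T3 or SHHN replicate 2 or 3 of MLg (adjusted p = 0.0663, 0.0553, 0.0716 and 0.0784). Usp18 lost it without NIH-3T3 SHHN replicates 2 or 3 or NIH-3T3 control replicate 3, and without replicates 2 or 3 of either MLg group (adjusted p = 0.0712, 0.0513, 0.0743, 0.0711, 0.0814, 0.0758 and 0.0612). Iigp1 lost it without any 1 of the 12 libraries other than MLg SHHN replicate 1 (adjusted p from 0.0533 to 0.115). Over the fits that left out 1 library, the difference itself stayed between 1.06 and 1.41 for Usp18, 0.74 and 0.96 for Mx2, and 0.58 and 0.75 for Iigp1. Without NIH-3T3 control replicate 2, Ddx58 joined Ifi44 as lower (adjusted p = 0.0481). For the 4 transcription factors the differences were between 0.01 and 0.26 and none was called, with standard errors of 0.15 to 0.22.

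Without SHHN, the lines already stood apart. NIH-3T3 control libraries were called lower than MLg control libraries for 29 of the 37 tested members and higher for 2 (Trim25 and Ifi44), against 25.7% and 24.4% of all tested genes. These 31 calls compare with 50.1% of all tested genes called in either direction. The 9 members that entered the test through MLg had to be higher there, and all 9 are among the 29. Among the other 28 tested members, 20 were called lower and 2 higher, with a median of -0.83. The shares of all tested genes under the same restriction were not computed. The median fold change of all 37 was -1.20, against -0.00 over all tested genes. It ranged from -1.45 with a pseudocount of 0.1 to -0.90 with a pseudocount of 1. With at least 2-fold required, 20 members were called lower and 2 higher, against 10.7% and 8.78% of all tested genes. Without overlap between the control groups, 28 members were lower and 2 higher, against 27.0% and 25.2% of all tested genes. These control libraries are the same ones that the SHHN effects were measured against. The medians and counts over all 37 members include the 9 that had to be higher in MLg. Those values are a description and no test.

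**Figure D5:**
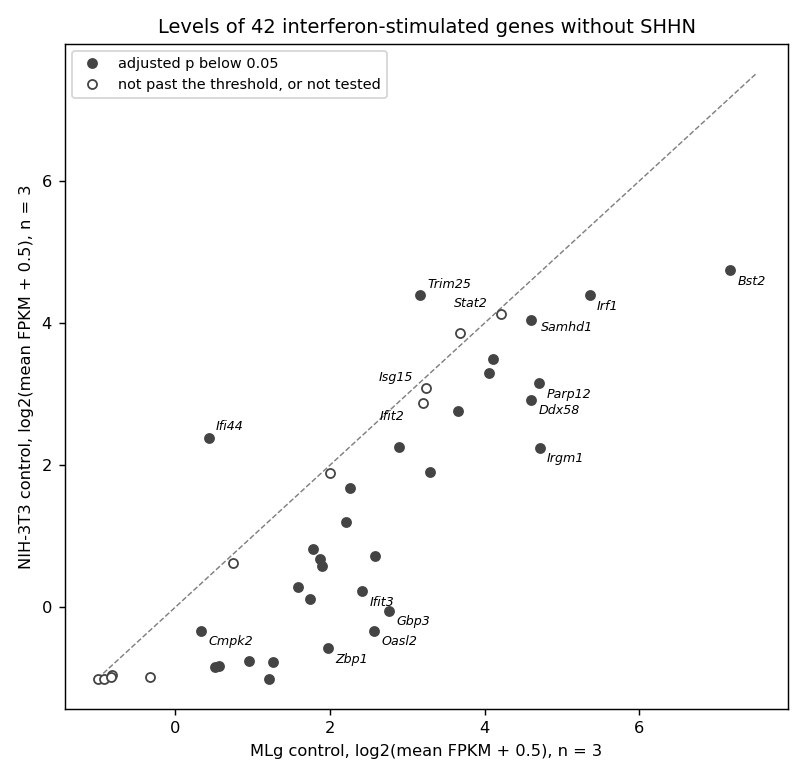
Mean level of each of the 42 members in NIH-3T3 control libraries (vertical axis) against MLg control libraries (horizontal axis), as log2 of the mean FPKM + 0.5 over 3 libraries each; filled points had an adjusted p under 0.05, and the dashed line marks equal levels. Most members lie under the line, and Trim25 and Ifi44 are the filled points above it.

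Among the members, Irgm1 had the smallest p of the line comparison: its control values given above, 3.57 to 4.74 FPKM in NIH-3T3 and 25.4 to 26.1 FPKM in MLg, gave a fold change of -2.48 ± 0.11 (adjusted p = 6.49e-10). Gbp3 had -2.82 ± 0.21 (adjusted p = 1.08e-07). Oasl2 (-2.91 ± 0.15) and Iigp1 (-2.21 ± 0.14) entered the test through MLg libraries alone, so their lower level in NIH-3T3 is a description and no test. These 4 genes lay lower in every NIH-3T3 control library than in every MLg control library. Bst2 averaged 26.3 ± 10.9 FPKM in NIH-3T3 control and 143 ± 16.1 FPKM in MLg control libraries (SD, n = 3 each; -2.49 ± 0.21, adjusted p = 2.7e-07). Trim25 was higher in NIH-3T3 control libraries (1.21 ± 0.13, adjusted p = 2.89e-06), as was Ifi44 (1.93 ± 0.22, adjusted p = 5.77e-06). Stat2 (-0.07 ± 0.13), Isg15 (-0.13 ± 0.23), Dhx58 (-0.12 ± 0.19), Trim21 (-0.12 ± 0.15), Ifit2 (-0.38 ± 0.19) and Eif2ak2 (0.19 ± 0.19) were not called. Ifi35 (-0.65 ± 0.19, adjusted p = 0.0134) lost its call without NIH-3T3 control replicate 1 (adjusted p = 0.0584) or 3 (adjusted p = 0.0600), and Ifit2 gained one without NIH-3T3 control replicate 1 (adjusted p = 0.0371).

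Upstream of the members, most interferon genes were listed at 0 and several receptor genes fell. Ifnb1, Ifng, Ifna1, Ifna2, Ifna4, Ifna5, Ifna12, Ifnk, Ifnl2 and Ifnl3 were listed at 0 in all 12 libraries, and Ifne reached at most 0.723 FPKM. Of the 18 interferon and receptor genes in the table, 5 were tested, all receptor chains. Of these, 3 fell in NIH-3T3 and 4 in MLg, against 14.8% and 10.0% of all tested genes. Ifnar2, the signalling chain of the type I receptor, was at 11.4, 12.2 and 14.6 FPKM in NIH-3T3 SHHN libraries, against 27.7, 30.6 and 29.8 FPKM in NIH-3T3 control libraries. Ifnar2 in MLg stood at 12.6, 16.8 and 14.4 FPKM in SHHN libraries, against 21.6, 25.8 and 27.4 FPKM in control libraries. Treated libraries lay under control libraries in each line, with fold changes of -1.18 ± 0.14 in NIH-3T3 (adjusted p = 1.6e-05) and -0.76 ± 0.14 in MLg (adjusted p = 0.001). Ifnar1, the other chain, was not called (-0.24 ± 0.15 in NIH-3T3 and -0.36 ± 0.15 in MLg). Ifngr1, the ligand-binding chain of the interferon-gamma receptor, fell by 0.43 on the log2 scale in NIH-3T3 and by 0.58 in MLg (adjusted p = 0.00642 and 0.000946). Its partner Ifngr2 fell by 0.48 in NIH-3T3 and by 0.57 in MLg (adjusted p = 0.0164 and 0.00804), and the NIH-3T3 call was lost without SHHN replicate 2 (adjusted p = 0.0811). Il10rb, a chain shared by the type III interferon and interleukin-10 receptors, fell in MLg (-0.76 ± 0.15, adjusted p = 0.00165).

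Of 17 kinases, STAT factors and feedback inhibitors, 5 fell and 1 rose in NIH-3T3, and 2 fell and 2 rose in MLg. The shares of all tested genes were 14.8% lower and 16.6% higher in NIH-3T3, and 10.0% lower and 12.8% higher in MLg. In either direction, 31.4% of all tested genes were called in NIH-3T3 and 22.8% in MLg. The number of genes called in this list is near the background in each line. The SOCS genes, which encode feedback inhibitors of JAK kinases and cytokine receptors, split in direction. Socs1, the inhibitor best known for damping interferon signalling, was at 45.8, 68.0 and 66.4 FPKM in NIH-3T3 SHHN libraries, against 16.1, 23.0 and 15.9 FPKM in NIH-3T3 control libraries. In MLg it was at 18.7, 29.5 and 21.2 FPKM in SHHN libraries, against 9.76, 9.72 and 6.43 FPKM in control libraries. Socs1 was higher in every treated library of each line (1.68 ± 0.22 in NIH-3T3, adjusted p = 5.09e-05; 1.37 ± 0.22 in MLg, adjusted p = 0.000401). Socs3, the inhibitor of receptors that use gp130, was at 5.85, 3.15 and 2.51 FPKM in NIH-3T3 SHHN libraries, against 22.6, 23.2 and 18.8 FPKM in NIH-3T3 control libraries. MLg SHHN libraries held 8.70, 9.70 and 8.37 FPKM, against 21.5, 23.6 and 20.4 FPKM in MLg control libraries. Socs3 was lower in every treated library (-2.41 ± 0.21 in NIH-3T3, adjusted p = 1.21e-06; -1.24 ± 0.21 in MLg, adjusted p = 0.000633), as was Socs2 (-1.82 ± 0.25 in NIH-3T3 and -1.52 ± 0.25 in MLg). Stat3, which carries interleukin-6 type signals, fell in NIH-3T3 (-0.94 ± 0.14, adjusted p = 0.000161), and Pias1, an inhibitor of STAT signalling, rose in MLg (1.03 ± 0.14, adjusted p = 7.83e-05). Jak1 and Jak2 were called lower in NIH-3T3 (adjusted p = 0.0433 and 0.0447), and each lost the call in 9 of the 12 fits that left out 1 library, among them those without SHHN replicate 1, 2 or 3 of NIH-3T3 (adjusted p from 0.0567 to 0.174).

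Of 24 genes of nucleic acid sensing upstream of interferon, 20 were tested. In NIH-3T3, 7 fell and 3 rose, against 14.8% and 16.6% of all tested genes, so the 3 that rose are near the background. In MLg 5 fell, against 10.0% of all tested genes. Irf2, a repressor and relative of IRF1, averaged 6.59 ± 0.238 FPKM in NIH-3T3 SHHN and 14.7 ± 1.24 FPKM in NIH-3T3 control libraries, and 6.26 ± 0.470 FPKM in MLg SHHN and 10.4 ± 1.29 FPKM in MLg control libraries (SD, n = 3 each). It fell in NIH-3T3 (-1.09 ± 0.12, adjusted p = 1.13e-05) and in MLg (-0.68 ± 0.12, adjusted p = 0.000937). Mb21d1, which encodes the cytosolic DNA sensor cGAS, rose in NIH-3T3 (1.23 ± 0.17, adjusted p = 7.01e-05), and the effect was higher there than in MLg (1.05 ± 0.23, adjusted p = 0.00963). Ifi204, a mouse DNA sensor of the PYHIN family, fell in NIH-3T3 (-0.92 ± 0.14) and in MLg (-0.59 ± 0.14).

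Among 62 further genes known to be induced by interferon, 49 were tested. In NIH-3T3, 18 fell and 4 rose, against 14.8% and 16.6% of all tested genes. In MLg, 21 fell and 1 rose, against 10.0% and 12.8%. Ifitm3, which blocks the entry of enveloped viruses, was at 86.1, 43.7 and 56.6 FPKM in NIH-3T3 SHHN libraries, against 419, 583 and 456 FPKM in NIH-3T3 control libraries. The MLg values were 235, 313 and 271 FPKM with SHHN, against 596, 645 and 514 FPKM with vehicle. Its libraries were far apart in NIH-3T3 (-3.0 ± 0.21, adjusted p = 1.53e-07) and apart in MLg (-1.10 ± 0.21, adjusted p = 0.0017), and the fall was larger in NIH-3T3 (difference -1.90 ± 0.30, adjusted p = 0.00102). Isg20, an exonuclease that degrades viral RNA, fell in NIH-3T3 (-1.62 ± 0.15) and in MLg (-1.13 ± 0.15). Ifi47, an immunity-related GTPase, fell in NIH-3T3 (-1.51 ± 0.18) and in MLg (-1.41 ± 0.18), and Uba7, the enzyme that activates ISG15, fell in NIH-3T3 (-1.23 ± 0.16) and in MLg (-0.84 ± 0.16). Tgtp1 and Tgtp2, near-identical GTPase copies whose reads may be split, fell in MLg (-1.56 ± 0.18 and -1.77 ± 0.21). Tgtp1 was also called lower in NIH-3T3 (-0.52). That call was lost in several fits, among them those without NIH-3T3 SHHN replicate 1, 2 or 3 (adjusted p = 0.108, 0.123 and 0.0557). The Schlafen genes Slfn2 (-1.55 ± 0.19) and Slfn5 (-1.19 ± 0.15) fell in MLg. Slfn9, another Schlafen gene, rose in both lines: it was at 11.1, 10.7 and 7.67 FPKM in NIH-3T3 SHHN libraries, against 1.95, 0.463 and 1.38 FPKM in NIH-3T3 control libraries. It was at 24.3, 22.5 and 24.2 FPKM in MLg SHHN libraries, against 2.76, 3.04 and 5.22 FPKM in MLg control libraries. These groups did not overlap (2.63 ± 0.29 in NIH-3T3, adjusted p = 1.19e-05; 2.58 ± 0.29 in MLg, adjusted p = 1.94e-05).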

How the data were processed

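The authors sequenced 12 RNA libraries of mouse fibroblast lines and deposited FPKM per gene and library. The submitters' processing notes name bcl2fastq, TopHat2 2.0.12, Cufflinks 2.2.1 and mm10. Annotation, strand use and scaling between libraries are not given in the sources used here. FPKM keep no read counts, so depth is unknown and no counting interval is given. 1 entry without values was left out.

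The fit used limma 3.58.1 (R 4.3.3) on log2(FPKM + 0.5), all 12 libraries, 4 groups and a variance trend, with two-sided p-values adjusted by Benjamini-Hochberg over the 12379 genes that passed the filter. The script was tested on simulated data. The members and lists were chosen with earlier results of these data known. Values in every library are given for the 8 members with the smallest p in each SHHN comparison, the 4 with the smallest p between control groups, members whose effect differed between lines and members called against the main direction. Of each other list, up to 6 genes with the smallest p are named. Ifit2, Ifnar1 and Rsad2 were named after their values were seen. The alternatives changed the pseudocount (0.1 or 1), the filter (1 FPKM or none), the scaling (quantile or median-ratio), the libraries in a fit (6, or all but 1), the variance estimate (robust), the block (replicate number) or the fold required (2).

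In MLg, SHHN and control libraries with the same number deviated together from their group means across genes (correlations 0.13, 0.16 and 0.24). The numbers may mark pairs there, which is read from the data and not from the labels. The main fit used no pairing, so the MLg calls and p-values are unpaired unless the replicate block is named. With that block 25 members were called lower in MLg, against 26 in the main fit.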

Additional observations from a re-analysis of the deposited data

Results flagged for a closer look

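The SHHN effect differed between the lines for 10 interferon-stimulated genes, by a test of the difference itself (NIH-3T3 effect minus MLg effect, log2, limma with Benjamini-Hochberg adjustment). Cmpk2 (2.42, adjusted p = 6.39e-05) was higher with SHHN in 6 of 6 treated libraries than in the controls of their line, and the rise was larger in NIH-3T3. Ifi44 (-1.68, adjusted p = 0.00279) was lower in 6 of 6 treated libraries, and the fall was larger in NIH-3T3. Isg15 (1.72, adjusted p = 0.00336) and Irgm1 (0.71, adjusted p = 0.011) were lower in 3 of 3 MLg SHHN libraries and overlapped between treatments in NIH-3T3. These 4 calls held under every alternative that set no size of change.

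Ifit1 (1.21, adjusted p = 0.00666), Oasl2 (1.03, adjusted p = 0.0064), Ifit3 (1.02, adjusted p = 0.0131), Usp18 (1.19, adjusted p = 0.0295), Mx2 (0.81) and Iigp1 (0.66, adjusted p = 0.0448) were lower in 3 of 3 MLg SHHN libraries than in every MLg control library. In NIH-3T3 control libraries these 6 genes were at most 0.763 FPKM. All of them except Ifit3 had fewer than 3 NIH-3T3 libraries at the filter and entered the test through MLg. Mx2 entered the test through the MLg control libraries alone, where it was high, so its difference is a description and no test. The difference of these 6 genes was not called with a pseudocount of 0.1.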

How the results depend on the processing

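Of 3051 recomputed member fold changes, none reversed a call, 81 calls were lost, 38 were gained and 2932 were the same. With p as the only threshold, members tested under every alternative and called in each numbered 10 of 15 in NIH-3T3, 19 of 27 in MLg, 4 of 10 in the difference between lines and 28 of 31 between control groups. With 6 libraries per fit, 10 members were called lower and 1 higher in NIH-3T3 (Trim25, Igtp, Bst2 and Samhd1 lost the call, adjusted p = 0.0848, 0.0559, 0.0597 and 0.0833), and 29 lower and 2 higher in MLg. With a 2-fold change required, 2 were lower and 1 higher in NIH-3T3, and 9 were lower and 0 higher in MLg. A pseudocount of 0.1 left 3 members higher in the difference between lines, and a pseudocount of 1 gave 11. The cause of these shifts was not tested, apart from the size that the 2-fold rule requires. A fit of 6 libraries gives no difference between lines. Leaving out 1 library at a time gave 11 to 15 members lower and 1 to 3 higher in NIH-3T3, 20 to 29 lower and 1 to 2 higher in MLg, 1 to 2 lower and 6 to 10 higher in the difference, and 28 to 29 lower and 2 higher between control groups. Outside the members, the control comparison of Ifitm2 reversed with quantile normalization (-0.0507, adjusted p = 0.745, against 0.34 before).

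With the replicate block, 14 members were lower and 2 higher in NIH-3T3, and the MLg and difference calls that changed are given with the results; it changed no other MLg call. In NIH-3T3 the same-numbered SHHN and control libraries did not deviate together (correlations -0.00, -0.10 and 0.03), so the numbers were not read as pairs there. With the block in NIH-3T3, Ifit3 lost its call (adjusted p = 0.0701), while Ifit1 (adjusted p = 0.0418) and Ifi35 (adjusted p = 0.0317) gained one. Between the control groups of the lines, same-numbered libraries had correlations of -0.07, 0.45 and 0.39, and differently numbered ones -0.49 to 0.26. What the numbers share across the lines was not tested. With unknown depth, fold changes of groups under 0.5 FPKM move with the pseudocount: Ifi44 in NIH-3T3 was -3.42 with 0.1 and -2.06 with 1.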
